A study of Mus musculus with 6 samples.

Results

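The cyclins, kinases and inhibitors that gate the G1 phase of the cell cycle were examined in mouse aorta as a set of 10 genes, namely the D-type cyclins Ccnd1, Ccnd2 and Ccnd3, their kinases Cdk4 and Cdk6, the CIP/KIP inhibitors Cdkn1a and Cdkn1b, and the INK4 inhibitors Cdkn2a, Cdkn2b and Cdkn2c. They were taken by gene symbol from the 55335 genes counted, and 9 of the 10 had enough counts to be fitted, against 16612 genes of the whole table. The set was put forward because Ccnd1 was seen to be higher at 6 months, so that the age difference of these genes is described below without a test. The young group held aortas of 3 wild-type C57BL/6 mice aged 6 weeks and the aged group those of 3 wild-type C57BL/6 mice aged 6 months, with 1 library per mouse. All mice were described as male, no treatment is named for either group beyond xylazine anaesthesia before death, and the fat around the vessel was dissected away before about the same length of vessel was frozen from each animal. The vessel was not sorted into cell types, and mice of 6 months are mature adults rather than old animals, which limits the aged group as a model of old age.

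D-type cyclins are made when growth factors reach a resting cell. They bind CDK4 or CDK6, and the active kinase phosphorylates the retinoblastoma protein, which then releases E2F factors that switch on the genes of DNA replication. INK4 proteins (p16, p15 and p18) bind the kinases themselves, while CIP/KIP proteins (p21 and p27) hold back the later cyclin and CDK2 complexes and also assist the assembly of D cyclin complexes. p16 and p21 are widely used as marks of senescent cells, and smooth muscle cells of the healthy aortic wall rarely divide.

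All D cyclins carry near their start the short motif (L-x-C-x-E) through which they touch the retinoblastoma protein. The first 60 bases of each coding sequence are shown because the 3 genes are paralogs whose reads must be told apart, with the 5 codons of that motif in capitals (GENCODE M21 transcripts, GRCm38, 5′ to 3′ on the coding strand). Ccnd1 is read here on the minus strand at chr7:144939634-144939693, Ccnd2 on the minus strand at chr6:127150714-127150773, and Ccnd3 on the plus strand at chr17:47593655-47593714.
Ccnd1: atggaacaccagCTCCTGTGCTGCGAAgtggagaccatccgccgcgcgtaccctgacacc
Ccnd2: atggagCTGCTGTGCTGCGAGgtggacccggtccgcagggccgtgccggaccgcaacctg
Ccnd3: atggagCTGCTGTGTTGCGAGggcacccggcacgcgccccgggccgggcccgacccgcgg
The motif spans codons 5 to 9 of Ccnd1 and codons 3 to 7 of Ccnd2 and Ccnd3, in coding sequences of 888, 870 and 879 bases. Despite this shared stretch, none of the 10 genes shared a 50-base word (the stated read length) with another of the 10 in the annotated transcripts, so that whole reads of these genes differ from each other. Words shared with genes outside the set made up 8.49% for Cdkn1a, 6.31% for Ccnd2, 5.39% for Ccnd3 and 3.32% for Cdk6. Those of Ccnd1 and Cdk4 are given below, and Cdkn1b, Cdkn2a, Cdkn2b and Cdkn2c shared none. Exons of Ccnd2, Cdk6 and Cdkn1a also overlap opposite-strand genes, which had at most 125 counts in any library.

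Libraries held between 31049632 and 45832185 counts, and between 14.6% and 20.8% of them lay on the 13 protein genes of the mitochondrial genome in young aorta, against 22.7% to 29.9% in aged aorta. Young replicate 1 did not match the stated male sex, since Xist, the RNA that silences an X chromosome in female cells, had 14806 counts there and at most 24 elsewhere, and the Y-linked gene Ddx3y had 53 counts there and at least 1488 elsewhere. Log2 ratios of the 9 fitted genes are therefore also given without it, and without aged replicate 2, whose absence alone let edgeR call genes. Genes of smooth muscle summed to between 28100 and 40300 CPM (counts scaled to library size with the TMM factors of edgeR) in every library. In bulk tissue, fewer cells of a type and less RNA per cell cannot be told apart.

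Ccnd1 encodes cyclin D1, the D cyclin most often tied to growth factor and adhesion signals, and lies on chromosome 7 from 144929931 to 144939925. It was measured at 8.61, 11.01 and 10.98 CPM in young replicates 1, 2 and 3 and at 49.3, 23.8 and 45.2 CPM in aged replicates 1, 2 and 3. Every aged library lay above every young library, and aged replicate 2 lay nearest to the young group. The means were 10.2 ± 1.38 and 39.4 ± 13.7 CPM (SD, n = 3 each), a 3.87-fold difference. The log2 ratio of aged over young aorta from the edgeR fit was 1.95 (standard error, SE, 0.29). It was 1.85 without young replicate 1 and 2.21 without aged replicate 2, and 2.11 without both. Oraov1, a gene on the opposite strand whose exons overlap those of Ccnd1, holds 21.6% of the 50-base words of the Ccnd1 transcripts. Oraov1 was at 8.1 to 11.6 CPM in young and 8.3 to 12.5 CPM in aged aorta, a log2 ratio of 0.045 (SE 0.25, adjusted p = 0.961 by edgeR), and counting by strand is not stated.

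Ccnd2, cyclin D2, lies on chromosome 6 from 127125162 to 127152193 and was the most abundant D cyclin in each library. It was at 219.9, 206.1 and 201.2 CPM in young replicates 1, 2 and 3 and at 170.4, 156.0 and 188.6 CPM in aged replicates 1, 2 and 3. All aged libraries lay below all young libraries, by a small margin. The log2 ratio was -0.28 (SE 0.15), or 1.22-fold lower, and -0.24 without young replicate 1 and -0.22 without aged replicate 2.

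Ccnd3, cyclin D3, lies on chromosome 17 from 47505051 to 47599691. It was at 79.2 and 85.6 CPM in young replicates 2 and 3, but at 17.9 CPM in young replicate 1, below all aged libraries at 26.4, 22.9 and 23.6 CPM. The groups therefore overlapped through young replicate 1 alone, the library that does not match the stated male sex. The log2 ratio was -1.32 (SE 0.51) over all libraries, -1.75 without young replicate 1 and -1.28 without aged replicate 2. Bysl, which overlaps Ccnd3 on the opposite strand, was at 12.7, 13.3 and 15 CPM in young replicates 1, 2 and 3, so its count did not follow that of Ccnd3 in young replicate 1.

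**Figure D1:**
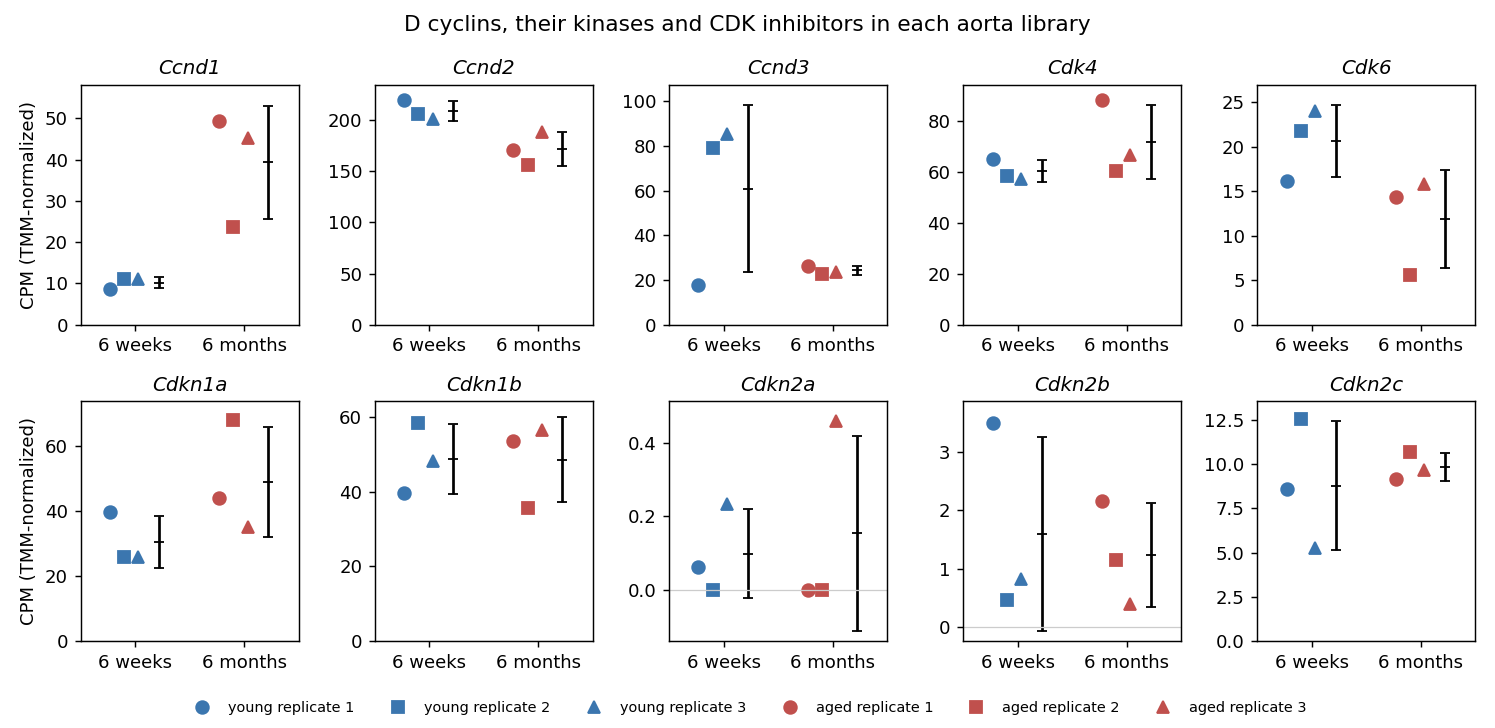
TMM-normalized CPM (vertical axis, linear) of the 10 genes in the 3 young (blue) and 3 aged (red) libraries, with marker shapes for replicates and black bars for the mean ± SD. Ccnd1 is higher in all aged libraries, Ccnd2 and Cdk6 are lower in all of them, and Ccnd3 in young replicate 1 sits at 17.9 CPM near the aged group.

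The makeup of D cyclin RNA was read from the deposited FPKM (reads scaled by gene length and by library size), since levels of different genes are comparable only per length. Ccnd1 made up 6.69%, 6.99% and 6.96% of the summed D cyclin FPKM in young replicates 1, 2 and 3, and 33.2%, 20.8% and 29.7% in aged replicates 1, 2 and 3. Its mean share was 6.88% ± 0.167 in young and 27.9% ± 6.35 in aged aorta (SD, n = 3 each), 21.0 percentage points higher. Ccnd2 held the largest share in each library, from 63.9% to 85.9% in young and from 57.4% to 68.4% in aged aorta, with overlapping groups. The FPKM of Ccnd2 over that of Ccnd1 was 12.8, 9.42 and 9.17 in young and 1.73, 3.28 and 2.09 in aged replicates 1, 2 and 3. The 3 cyclins together summed to 30.6 ± 4.12 FPKM in young and 24.5 ± 3.35 FPKM in aged aorta (SD, n = 3 each), with young replicate 1 (25.8) inside the aged range of 20.7 to 26.9. The higher Ccnd1 thus stood beside a summed D cyclin level that was not higher in FPKM. FPKM carry no TMM factor, and on their log2 scale Ccnd2 was at -0.48 (limma, pseudocount 1) against -0.28 from the edgeR fit. Sums in FPKM therefore read lower in aged aorta than the fitted ratios do.

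**Figure D2:**
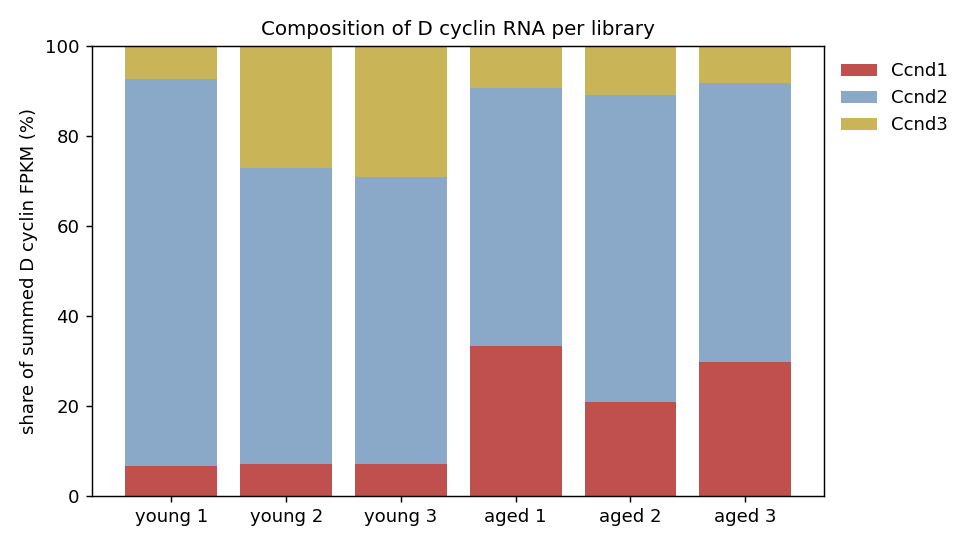
Share of the summed FPKM of Ccnd1, Ccnd2 and Ccnd3 (vertical axis, percent) that each gene holds in the 6 libraries (horizontal axis). The Ccnd1 segment is 6.69% to 6.99% in young and 20.8% to 33.2% in aged libraries, and Ccnd3 is small in young replicate 1 (7.45%) as in aged libraries.

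Among the kinases, Cdk4 lies on chromosome 10 from 127063534 to 127067920 and was at 65.0, 58.2 and 57.2 CPM in young and 87.9, 60.1 and 66.6 CPM in aged replicates 1, 2 and 3. The groups overlapped, and the log2 ratio was 0.25 (SE 0.18), 0.32 without young replicate 1 and 0.36 without aged replicate 2. Tspan31, which overlaps Cdk4 on the opposite strand, was at 55.7 to 80.9 CPM in young and 63.2 to 86.1 CPM in aged aorta, close to Cdk4 itself, and reads of the overlap cannot be told apart unless strand was used. Of the 50-base words of Cdk4, 17.0% also occur in transcripts of other genes. Cdk6, the partner kinase with the same cyclins, lies on chromosome 5 from 3341485 to 3531008 and was at 16.1, 21.8 and 24.0 CPM in young and 14.3, 5.62 and 15.8 CPM in aged replicates 1, 2 and 3. Its groups did not overlap, though young replicate 1 and aged replicate 3 differed by little. The log2 ratio of Cdk6 was -0.79 (SE 0.39), -0.94 without young replicate 1 and -0.45 without aged replicate 2. Per length, Cdk4 exceeded Cdk6 by 10.3 to 17.4 times in young and 18.2 to 46.8 times in aged aorta, as ratios of FPKM.

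Cdkn1a encodes p21, the inhibitor that p53 switches on, and lies on chromosome 17 from 29090976 to 29100727. It was at 39.7, 25.9 and 25.9 CPM in young and 43.8, 67.7 and 34.9 CPM in aged replicates 1, 2 and 3. Young replicate 1 exceeded aged replicate 3, so the groups overlapped. The log2 ratio was 0.68 (SE 0.29), 0.92 without young replicate 1 and 0.37 without aged replicate 2, which held its highest value. Cdkn1b encodes p27, which keeps resting cells out of the cycle, and lies on chromosome 6 from 134920401 to 134925513. It was at 39.5, 58.3 and 48.2 CPM in young and 53.5, 35.5 and 56.6 CPM in aged replicates 1, 2 and 3, with means of 48.7 and 48.5 CPM and a log2 ratio of -0.005 (SE 0.23). This ratio was -0.13 without young replicate 1 and 0.18 without aged replicate 2. In the aged library with the highest Cdkn1a, replicate 2, Cdkn1b was lowest.

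Cdkn2a, which encodes the senescence marker p16 and, from another first exon, p19Arf, lies on chromosome 4 from 89274471 to 89294653. Young replicates 1 and 3 had 3 and 8 counts and young replicate 2 had 0, while aged replicate 3 had 13 counts and the other aged libraries 0, which sums to 11 in young and 13 in aged aorta. A count of 0 allows up to 0.0862 CPM in young replicate 2, 0.0903 CPM in aged replicate 1 and 0.0795 CPM in aged replicate 2, taking 3 counts as the limit and covering counting error only. Cdkn2a was therefore at the edge of detection in both groups, no age difference was detectable at this depth, and counts per gene do not separate its 2 products. Cdkn2b, which encodes p15, lies beside it on chromosome 4 from 89306299 to 89311039 and was counted 170, 16 and 28 times across the young libraries and 72, 43 and 11 times across the aged ones. As levels these were 3.51, 0.460 and 0.816 CPM in young and 2.17, 1.14 and 0.389 CPM in aged aorta. The log2 ratio of Cdkn2b was -0.38 (SE 0.89) over all libraries and -0.32 without aged replicate 2, but it turned to 0.95 without young replicate 1 and to 0.04 without aged replicate 3. Cdkn2c, which encodes p18, lies on chromosome 4 from 109660876 to 109667189 and was at 8.61, 12.5 and 5.25 CPM in young and 9.15, 10.7 and 9.66 CPM in aged replicates 1, 2 and 3. All its aged values lay within the young range, with a log2 ratio of 0.16 (SE 0.32), 0.15 without young replicate 1 and 0.098 without aged replicate 2.

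**Figure D3:**
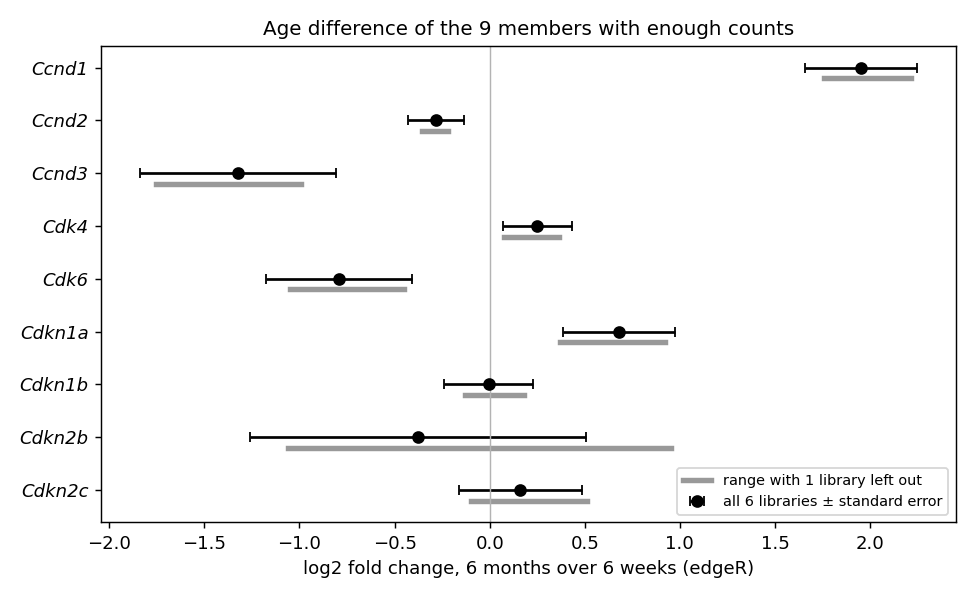
Fitted log2 ratio (log2 fold change) of aged over young aorta (horizontal axis) for the 9 genes with enough counts, as points with standard error bars, with the range over fits that left out 1 library in grey. Ccnd1 lies at 1.95 with a range of 1.76 to 2.21, and the ranges of Cdkn1b, Cdkn2b and Cdkn2c cross 0.

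Counts of calls are given for description only, as the set was chosen on this contrast. By the quasi-likelihood test of edgeR (Benjamini-Hochberg adjusted), 0 of the 9 fitted genes and 0 of 16612 genes in all (0.00%) had an adjusted p below 0.05. At an unadjusted p below 0.05, Ccnd1 was 1 of 923 genes higher in aged aorta (5.56% of genes tested) and Ccnd3 was 1 of 800 lower (4.82%), out of 1723 in both directions (10.4%). The Wald test of DESeq2 called 307 genes (2.0%), Ccnd1 among them, and edgeR without aged replicate 2 called 110 (0.642%), again with Ccnd1 as the member. Groups that did not overlap were found for 1286 genes higher in aged aorta (7.74%), with Ccnd1 as the member, and for 1458 lower (8.78%), with Ccnd2 and Cdk6 as members, or 16.5% of genes in both directions. Of the 9 fitted genes, 4 had a log2 ratio above 0, and the median was -0.005 against 0.02 over all genes.

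In order of FPKM, the young aorta had Ccnd2 (21.6) above Cdk4 (18.0), and then Cdkn1b (10.4), Cdkn1a (8.32), Ccnd3 (6.83), Cdkn2c (3.18), Ccnd1 (2.11), Cdk6 (1.44), Cdkn2b (1.1) and Cdkn2a (0.0763), as means of 3 libraries. Neighbours from Cdkn1b down to Ccnd1 overlapped over the libraries, as did Cdk6 and Cdkn2b. In aged aorta the order was Cdk4 (18.5), Ccnd2 (15.2), Cdkn1a (11.6), Cdkn1b (8.88), Ccnd1 (6.98), Cdkn2c (3.06), Ccnd3 (2.30), Cdkn2b (0.739), Cdk6 (0.705) and Cdkn2a (0.0974). There each of the first 5 genes overlapped its neighbour, Ccnd1 stood clear of Cdkn2c below it, and Cdkn2b overlapped Cdk6. Ccnd1 was thus the seventh gene in young and the fifth in aged aorta, while Ccnd3 was the fifth and the seventh. The summed FPKM of the CIP/KIP pair was 18.7 ± 0.917 in young and 20.4 ± 2.51 in aged aorta, and that of the INK4 genes 4.35 ± 1.44 and 3.90 ± 0.444 (SD, n = 3 each), with overlapping groups in each case. These sums too carry no TMM factor.

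Promoters were matched in RefSeq (GRCm38.p6) for 8 of the 10 genes, with 12 starts, and not for Ccnd1 and Ccnd2. The 250 bases before the start are shown for Ccnd3, Cdk6 and Cdkn1a because these matched genes had the largest log2 ratios in size after Ccnd1, with motif matches in capitals. For Ccnd3 (plus strand, chr17:47593217-47593466) and Cdkn1a (plus strand, chr17:29093519-29093768), which have 2 listed starts each, the second start is given, and Cdk6 has 1 (plus strand, chr5:3343643-3343892).
Ccnd3: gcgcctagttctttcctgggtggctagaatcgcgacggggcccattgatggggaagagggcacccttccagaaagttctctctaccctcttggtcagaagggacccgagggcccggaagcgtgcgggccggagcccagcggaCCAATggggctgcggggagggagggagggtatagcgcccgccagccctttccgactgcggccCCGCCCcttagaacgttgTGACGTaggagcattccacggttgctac
Cdk6: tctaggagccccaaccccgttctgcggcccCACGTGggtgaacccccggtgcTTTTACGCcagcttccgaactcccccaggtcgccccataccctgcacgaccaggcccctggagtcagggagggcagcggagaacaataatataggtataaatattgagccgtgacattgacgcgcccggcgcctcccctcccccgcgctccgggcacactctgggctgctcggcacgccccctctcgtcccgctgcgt
Cdkn1a: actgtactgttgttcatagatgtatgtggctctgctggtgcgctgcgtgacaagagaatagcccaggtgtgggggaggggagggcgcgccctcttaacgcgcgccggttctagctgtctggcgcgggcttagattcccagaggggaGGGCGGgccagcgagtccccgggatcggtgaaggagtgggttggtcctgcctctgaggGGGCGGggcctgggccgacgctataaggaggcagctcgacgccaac
Motifs were searched on both strands, and the share of 32851 promoter windows of the same length that hold each is given as background. The Ccnd3 window held a CCAAT box (CCAAT, in 33.8% of windows), a GC box (GGGCGG, 32.7%) and the core of the cAMP response element (ACGTCA, 6.47%). The Cdk6 window held an E-box (CACGTG, 6.02%) and an E2F motif (TTTNNCGC, 4.28%), and that of Cdkn1a held 2 GC boxes. These windows held no match to the AP-1 motif (TGANTCA, 6.75%), the TCF/LEF motif (CTTTGAA, 4.46%) or an NF-kappa B motif (0.356%). The matches hold for the starts shown only. At the first listed start, Ccnd3 had only 2 GC boxes and Cdkn1a had no match to any motif searched. No motif shown in capitals overlapped another.

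Beyond the 10 genes, 128 genes around them in 8 lists were read, of which 119 had enough counts and 0 had an adjusted p below 0.05 by edgeR. At an unadjusted p below 0.05, 27 were higher in aged aorta (5.56% of all genes were) and 1 was lower (4.82% of all genes were). DESeq2 called 8 of them higher and 0 lower, against 220 higher and 87 lower over all genes. Their median log2 ratio was 0.31, against 0.02 over all genes, and 93 of 119 lay above 0 against 8654 of 16612. Without young replicate 1, 93 of 124 lay above 0 and 21 were higher at an unadjusted p below 0.05, and without aged replicate 2 these counts were 92 and 33. On the log2 FPKM scale with limma, 70 of 119 lay above 0 with a pseudocount of 1 and 68 with 0.1, with 18 and 19 higher and 5 and 4 lower at an unadjusted p below 0.05. Their medians were then 0.047 and 0.064, where the medians of all genes were -0.12 and -0.19.

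The other inhibitors were Cdkn1c (p57), Cdkn2d (p19) and Cdkn3, a phosphatase that acts on CDKs. All 3 had log2 ratios above 0, at 0.74, 0.51 and 1.84 (SEs 0.37, 0.24 and 0.61), with a lowest adjusted p of 0.403 by edgeR. Cdkn3 was at 0.371, 0.402 and 0.175 CPM in young and 1.80, 0.716 and 0.920 CPM in aged replicates 1, 2 and 3, so its groups did not overlap at a low level.

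Cyclins E and A act with CDK2 after the D cyclins. Ccna2, cyclin A2, was at 1.59, 2.01 and 2.21 CPM in young and 5.72, 3.71 and 7.15 CPM in aged replicates 1, 2 and 3, with a log2 ratio of 1.51 (SE 0.34, adjusted p = 0.372 by edgeR and 0.0119 by DESeq2). Ccne1, cyclin E1, had no overlap between groups but stayed at 2.33 CPM or below (adjusted p = 0.449 by edgeR), and Skp2, which marks p27 for destruction, had a log2 ratio of -0.56 (adjusted p = 0.528 by edgeR). Cdk2 was at 18.4 CPM in young and 17.5 CPM in aged aorta on average.

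Of 12 fitted pocket protein and E2F genes, 6 lay above 0 and 6 below. Rbl1, which encodes the retinoblastoma relative p107, was at 3.67, 3.91 and 4.2 CPM in young and 2.62, 1.80 and 2.23 CPM in aged replicates 1, 2 and 3, a log2 ratio of -0.82 (adjusted p = 0.415 by edgeR). E2f7 and E2f1 had log2 ratios of 1.52 and 1.15 (adjusted p = 0.515 and 0.521 by edgeR). E2f7 stayed at 0.84 CPM or below, and E2f1 overlapped between groups, with aged replicate 2 at 1.48 CPM. Rb1 itself, at 25.3 CPM in young and 27.6 CPM in aged aorta, had a log2 ratio of 0.12 (SE 0.16).

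Genes that tag or stabilise D cyclins for turnover had a median log2 ratio of 0.06. Usp2, a deubiquitinase of cyclin D1, was at 3.10, 5.80 and 4.14 CPM in young and 3.94, 28.4 and 12.6 CPM in aged replicates 1, 2 and 3, highest in the aged library with the lowest Ccnd1 (adjusted p = 0.436 by edgeR). Fbxo31 and Cryab had log2 ratios of 0.60 and 0.23, with overlapping groups.

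Of 18 fitted genes upstream of Ccnd1, 12 lay above 0 and 6 below, with a median of 0.15. The AP-1 member Junb was at 76.5, 45.0 and 78.5 CPM in young and 211, 126 and 128 CPM in aged replicates 1, 2 and 3, without overlap. Its log2 ratio was 1.22 (SE 0.30, adjusted p = 0.377 by edgeR and 0.0114 by DESeq2). The other fitted AP-1 genes of the list, Jun, Fos and Fosl2, had log2 ratios of 0.15, -0.34 and -0.014 (adjusted p = 0.934, 0.893 and 0.992 by edgeR) with overlapping groups. Stat3 and Klf4 had log2 ratios of 0.59 and 0.71 with overlapping groups (adjusted p = 0.448 by edgeR for both). Myc, a growth regulator, was at 2.66 CPM in young and 2.96 CPM in aged aorta on average.

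Among p53 and its targets, which share their regulator with Cdkn1a, 13 of 18 lay above 0 with a median of 0.24. Phlda3, an inhibitor of AKT, was at 36.8, 28.6 and 20.8 CPM in young and 47.4, 56.6 and 48.3 CPM in aged replicates 1, 2 and 3 (log2 ratio 0.82, adjusted p = 0.377 by edgeR). Eda2r, a receptor of the TNF family, and Trp53inp1 also had groups that did not overlap, with log2 ratios of 1.17 and 1.24 (adjusted p = 0.377 and 0.436 by edgeR). Trp53inp1 was at 66.7, 81.0 and 64.7 CPM in young and 82.1, 298 and 120 CPM in aged replicates 1, 2 and 3. Its groups were thus apart by a small margin, with aged replicate 2 far above the rest. Mdm2, the p53 ubiquitin ligase, had a log2 ratio of -0.094 (SE 0.19).

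The senescence and secretory list had 26 genes, 21 with enough counts, of which 20 lay above 0 with a median of 0.49 and 8 were higher at an unadjusted p below 0.05, where 5.56% of all genes were and 8654 of 16612 lay above 0. The list holds genes that rise and genes that fall in senescent cells, so a log2 ratio above 0 is no senescence direction for the list. Hmgb2, a chromatin protein of dividing cells whose loss marks senescence, was at 10.7, 14.2 and 6.50 CPM in young and 16.6, 77.6 and 31.5 CPM in aged replicates 1, 2 and 3 (log2 ratio 2.002, adjusted p = 0.379 by edgeR and 0.00632 by DESeq2). Mmp3 and Gdf15, secreted by senescent and by inflamed tissue, had log2 ratios of 2.70 and 2.07 (adjusted p = 0.382 and 0.390 by edgeR, 0.0926 and 0.0749 by DESeq2). Mmp3 was at 313, 30.7 and 125 CPM in aged replicates 1, 2 and 3 and overlapped the young group, which reached 34.8 CPM. Gdf15 did not overlap but stayed at 2.62 CPM or below. Lmnb1, a lamina gene that falls in senescent cells, was at 3.74 CPM in young and 4.14 CPM in aged aorta on average.

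**Figure D4:**
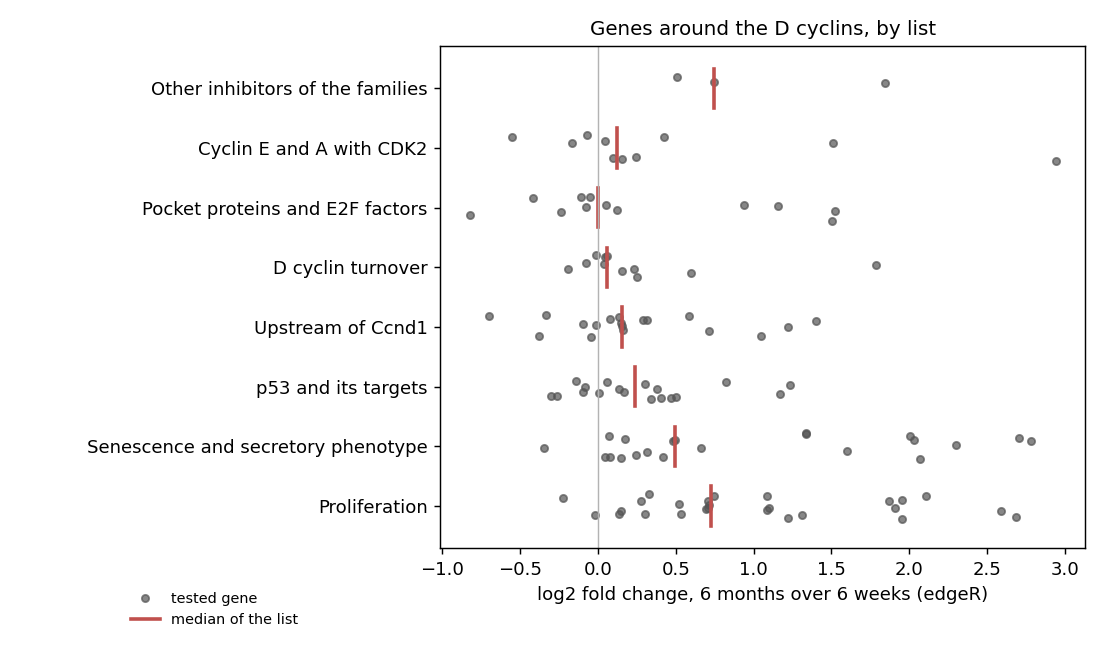
Fitted log2 ratio (log2 fold change) of aged over young aorta (horizontal axis) for each tested gene of the 8 lists around the D cyclins (grey points, spread vertically only for legibility), with the list median in red. Medians run from 0.001 for pocket proteins and E2F factors to 0.74 for the other inhibitors, and the proliferation list stands at 0.73.

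Proliferation genes, the readout that lies beyond G1, had log2 ratios above 0 for 24 of 26 genes, against 8654 of 16612 over all genes. For 13 of the 26, every aged library lay above every young library, as for 7.74% of all genes. Ccnb2, Mki67 and Top2a were at 1.90, 7.78 and 6.26 CPM in aged aorta on average, against 0.314, 2.07 and 1.62 CPM in young aorta (adjusted p = 0.339, 0.360 and 0.360 by edgeR). Their adjusted p by DESeq2 were 0.00366, 0.00111 and 0.00192. In aged replicate 2, which had the lowest Ccnd1 of the aged group, Mki67 and Top2a were also lowest of that group, at 4.90 and 4.32 CPM. Not every gene of the list went this way, since Cdk1, Mcm2 and Rrm2 were highest of that group there, at 2.31, 10.5 and 3.55 CPM.

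Markers of other cells were read in the same libraries. The 10 macrophage markers, all detected, summed to between 98.3 and 133 CPM in young and between 139 and 446 CPM in aged aorta (exact two-sided permutation test of the mean log2 CPM, p = 0.1, the smallest that 3 mice against 3 allow, adjusted p = 0.25 over 10 lists). Aged replicate 2 was lowest of the aged group in these markers, as for Ccnd1. It was also lowest in summed fibroblast (4610 CPM), endothelial (420 CPM) and proliferation (192 CPM) genes, and not in the other lists. The 26 proliferation genes, apart in mean log2 CPM (p = 0.1, same exact test), summed to between 183 and 209 CPM in young and between 192 and 267 CPM in aged aorta. The 8 smooth muscle markers were lower by 0.40 in mean log2 CPM, and the 8 cardiac muscle markers by 1.57, both with groups apart on that scale (p = 0.1 each, same exact test). Adipocyte markers summed to 3560 CPM in aged replicate 2, the library with the highest Cdkn1a, and to between 482 and 1700 CPM in the others. Endothelial markers summed to 1810 CPM in aged replicate 3 and to between 420 and 575 CPM in the others. Cardiac markers summed to 366 CPM in young replicate 1 and to between 83.5 and 97.4 CPM in the other libraries. Endothelial, fibroblast, lymphocyte, adipocyte, Schwann and mesothelial lists overlapped between groups in mean log2 CPM, with p of 0.4 or more by the same exact test, though the summed Schwann markers were at 14.1 to 24.0 CPM in young and 27.4 to 43.9 CPM in aged aorta. Of the 8 fibroblast markers, 6 had log2 ratios above 0 and 2 below, with a median of 1.32, and DESeq2 called 2 higher. All 10 macrophage markers had log2 ratios above 0, with a median of 1.39, and DESeq2 called 6 higher. Over all genes, 8654 of 16612 lay above 0 and DESeq2 called 220 higher. The lowest adjusted p by edgeR was 0.306 among macrophage and 0.377 among fibroblast markers. No marker gene of these lists was at 0 in all libraries. The part of these markers, and of the mitochondrial share, in the values of the D cyclin genes was not tested.

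The genes whose pattern was most like that of Ccnd1 were sought over the 6 libraries by Pearson's r of log2 CPM among the 14084 genes that averaged 1 CPM or more. Since the groups stand apart in Ccnd1, a high r mostly restates that difference, with aged replicate 2 between the young and the other aged libraries. The highest r were those of Cebpd (0.998), Ckap2 (0.997), Ifi207 (0.994), Nbl1 (0.993) and Eda2r (0.992), and the lowest those of Fgfr2 (-0.998), Eln (-0.998) and Ky (-0.992). Cebpd, a transcription factor, was at 14.0, 17.9 and 19.6 CPM in young and 70.9, 37.9 and 70.7 CPM in aged replicates 1, 2 and 3. Eln, which encodes elastin, was at 5280, 5000 and 4830 CPM in young and 2210, 3340 and 2360 CPM in aged replicates 1, 2 and 3. In both genes aged replicate 2 lay between the young and the other aged libraries.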

How the data were processed

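RNA of aorta from 3 young and 3 aged mice was sequenced with single-ended reads of 50 cycles, with 1 library per mouse. The deposited counts are whole reads per gene without normalization, and the deposited FPKM were scaled by the authors for gene length and library reads. The submitters' processing notes name mm10, and the aligner, counter, annotation and strand setting are not given in the sources used here. For Ccnd1, FPKM stayed proportional to counts, while for Cdkn2a the FPKM per raw CPM varied between 0.514 and 0.758. Coordinates are those of GENCODE M21 (GRCm38).

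Counts were filtered (filterByExpr, minimum count 10, minimum total 15), TMM-normalized and fitted by group with edgeR 4.0.16 in R 4.3.3, adjusted by Benjamini-Hochberg over 16612 genes (threshold 0.05). The standard error is the size of the log2 fold change (called log2 ratio) divided by the square root of F. Alternatives used DESeq2 1.42.0, limma 3.58.1, other filters and size factors, a replicate block and each library left out. The fit was tested on simulated data. Mice are separate animals as the design text lists them, and depth limits low genes such as Cdkn2a. Members, lists and tests were chosen with earlier results of these data known. Named are all members, the 3 genes of each list with the smallest p, and the 5 genes most and 3 least like Ccnd1. Oraov1, Bysl, Tspan31, Cdk2, Rb1, Jun, Fos, Fosl2, Myc, Mdm2 and Lmnb1 were named after their values were seen. So were Cdk1, Mcm2, Rrm2 and Gsk3b, while Icam1, Timp1 and Ube2c are named only as calls under alternatives.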

Additional observations from a re-analysis of the deposited data

How the results depend on the processing

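The count of genes called over all genes, 0 by edgeR (1723 at an unadjusted p below 0.05), reached 307 under DESeq2, and leaving out single libraries gave 0 to 110, where only the omission of aged replicate 2 gave any (0.642% of genes, Ccnd1 among them). For the genes around the D cyclins, 0 became 8 under DESeq2 (Ccna2, Junb, Hmgb2, Timp1, Mki67, Top2a, Ccnb2 and Ube2c), and leaving out single libraries gave 0 to 2 (Icam1 and Timp1, once aged replicate 2 was out). The cause was not tested. RLE size factors, no filter, 10 counts in every library, limma on log2-scaled FPKM (pseudocount 1 or 0.1), removal of 44 mitochondrial genes and copies, and leaving out young replicate 1 and aged replicate 2 together (chosen after seeing the data) gave 0 calls. The log2 ratio of Ccnd1 lay between 1.32 (limma, pseudocount 1) and 2.21, that of Ccnd2 between -0.51 and -0.18, that of Ccnd3 between -1.75 and -0.99, and that of Cdk6 between -1.05 and -0.45. Limma on FPKM moved the median of all genes to -0.12 and -0.19, and Cdk4 to 0.014. Of 135 values of the 9 fitted genes under alternatives, 127 kept their sign. The others were of Cdkn1b, Cdkn2b and Cdkn2c, with Cdkn2b at 1.00 without young replicate 1 and aged replicate 2.

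Adding a replicate block to the edgeR fit called 0 genes in all and 0 around the D cyclins, 4 members lay above 0 and Ccnd1 was at 1.89. Same-numbered libraries deviated from their group means with correlations of 0.079, 0.117 and 0.096 over genes. Libraries with different numbers were not compared, so these values cannot decide whether same-numbered mice were paired or shared a batch. Gsk3b, of the turnover list, was at 5.676 CPM in young replicate 1 and 5.597 CPM in aged replicate 1. It was at 51.99 and 60.17 CPM in young and 58.76 and 58.36 CPM in aged replicates 2 and 3. How many genes split in this way, and why, was not tested. The Ccnd1 share of D cyclin FPKM differed by 18.4 to 24.5 percentage points with single libraries left out, and the number of the 10 marker lists whose groups did not overlap was 4 to 5, or 3 by the median over markers (4 by the mean over all libraries).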
